A study of Mus musculus with 27 samples.

Results

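The IL-6 family, STAT3 and SOCS3 were examined as 8 genes of the 19392 in the expression table. They were chosen by gene symbol, with no threshold on a measured value, but with earlier results of these data known. They comprise the cytokine genes Il6 and Lif, the receptor genes Il6ra, Osmr and Il6st, the transcription factor gene Stat3, the feedback inhibitor gene Socs3, and Bcl3, a nuclear partner of NF-kB. RNA-Seq was done on the left kidneys of 27 C57BL/6 mice, in 9 groups of 3 that differed in ischemia time. In every mouse the right kidney was removed, and in the ischemia groups the left renal pedicle was clamped for 16, 18, 20, 22, 24, 26, 28 or 30 min on a heating platform, followed by 24 h of reperfusion. The 0 min (sham) mice had the same nephrectomy without clamping, so all groups carried a single remaining kidney. The age and sex of the mice are not given in the sources used here. Values are FPKM (fragments mapped to a gene, scaled to its length and to the size of the library), so levels of different genes can be compared. Part of the left kidney was fixed for histology, and the paper does not say which part gave the RNA. Each kidney sample mixes many cell types, so fewer cells of a type and less RNA per cell cannot be told apart.

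IL-6, LIF, oncostatin M and their relatives are secreted cytokines that share the receptor subunit gp130, the product of Il6st. Each cytokine also needs a partner chain, such as IL6RA for IL-6, LIFR for LIF, or OSMR for oncostatin M. The joined receptor activates JAK kinases, which phosphorylate STAT3. Phosphorylated STAT3 enters the nucleus and induces target genes, among them Socs3, whose product binds gp130 and stops the signal. STAT3 activity itself depends on phosphorylation, which RNA levels do not measure. In the injured kidney this pathway is known for the acute-phase response of tubular cells and for recruitment of leukocytes.

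The 8 genes lie on 6 chromosomes of the mouse genome. In RefSeq on GRCm38.p6, Il6 is at chr5:30013114-30019975 and Il6ra at chr3:89869324-89913196. Lif is at chr11:4257568-4272514, Stat3 at chr11:100886806-100939594 and Socs3 at chr11:117966079-117970336. Il6st is at chr13:112464070-112506860, Osmr at chr15:6813568-6874968 and Bcl3 at chr7:19808462-19822824.

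The 250 bases before each RefSeq start were searched on both strands for 3 motifs, and all 8 genes had an entry in the promoter table. The STAT motif TTCNNNGAA was in 7.02% of 32851 promoters, and among the 8 genes in Socs3 alone. The NF-kB motif was in 7.25% of promoters, and the AP-1 motif TGANTCA in 6.75%. Il6 and Lif each held both of the latter, and the other 5 genes held none of the 3 motifs in this window. The stretches of Socs3, Il6 and Lif that hold a match are shown from RefSeq (GRCm38.p6), because these genes are a feedback target and the pathway's inducible ligands. Capitals mark the STAT motif in Socs3 (chr11:117969467-117969616, minus strand), the NF-kB motif in Il6 (chr5:30012994-30013113, plus strand) and the AP-1 motif in Lif (chr11:4257318-4257437, plus strand).
Socs3: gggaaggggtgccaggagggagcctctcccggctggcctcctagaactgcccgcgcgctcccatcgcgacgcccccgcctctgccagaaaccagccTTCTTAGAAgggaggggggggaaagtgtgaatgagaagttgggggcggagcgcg
Il6: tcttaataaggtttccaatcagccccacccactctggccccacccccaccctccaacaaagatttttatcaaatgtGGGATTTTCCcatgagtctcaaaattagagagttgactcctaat
Lif: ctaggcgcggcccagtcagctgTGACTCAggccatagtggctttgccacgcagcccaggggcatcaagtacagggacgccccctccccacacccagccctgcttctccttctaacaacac
None of the 3 stretches overlapped an exon in GENCODE M21. The Il6 and Lif stretches lay upstream of every transcript of their gene. The Socs3 stretch lay in an intron of 1 of its 3 transcripts. It also lay inside the RefSeq span of Socs3 given above, so the start used for Socs3 was not the outer end of that span. The STAT motif of Socs3 was 326 bases before the start of the transcript ENSMUST00000054002.3 and 61 bases before that of ENSMUST00000132295.1. A match to these letters is a description of the sequence, and binding was not measured.

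A few kidneys stood apart, and several calls depended on them. Replicate 3 at 16 min lay nearer to the sham kidneys than to its own group. On the first principal component, which held 51.8% of the variance, it was at -30.2, its group mates were at -11.4 and 2.66, and the sham kidneys were between -44.7 and -36.7. The sham kidneys also differed from one another. Stat2, a transcription factor gene of the interferon response, was 5.69, 27.02 and 28.75 FPKM in sham replicates 1, 2 and 3. Sham replicate 3 in addition held the most Socs3, Lif, Osmr and Il6 of the sham kidneys, and sham replicate 1 the least Stat3 and Bcl3. Summed markers of adrenal gland, fat or muscle were at most 0.42 FPKM in the sham kidneys. They were at 33.9 FPKM in replicate 1 at 18 min, 9.89 in replicate 1 at 20 min and 25.8 in replicate 3 at 22 min. The part of such tissue in the calls at these times was not tested.

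The level of the 8 genes spanned a wide range. In the sham kidneys Stat3 (24.3 ± 6.63 FPKM, SD, n = 3) and Il6st (21.9 ± 1.11) were the highest, and their kidneys overlapped. Bcl3 followed at 7.72 ± 3.31, then Osmr at 2.79 ± 0.593 and Socs3 at 2.24 ± 1.67. The kidneys of Socs3 overlapped those of both Osmr and Bcl3, while Bcl3 and Osmr did not overlap. Il6ra was at 0.677 ± 0.165 and Lif at 0.290 ± 0.260, again with overlapping kidneys, and Il6 was listed at 0 in 2 sham kidneys. At 30 min the order was different. Stat3 stood alone at 55.4 ± 3.39 FPKM, followed by Il6st (22.7 ± 2.44), Socs3 (18.0 ± 2.46) and Bcl3 (17.5 ± 4.50), which overlapped. Socs3 had thus moved from near Osmr to near Il6st. Osmr was at 7.69 ± 1.67, Lif at 2.53 ± 0.232, Il6ra at 1.80 ± 0.516 and Il6 at 0.833 ± 0.404.

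**Figure D1:**
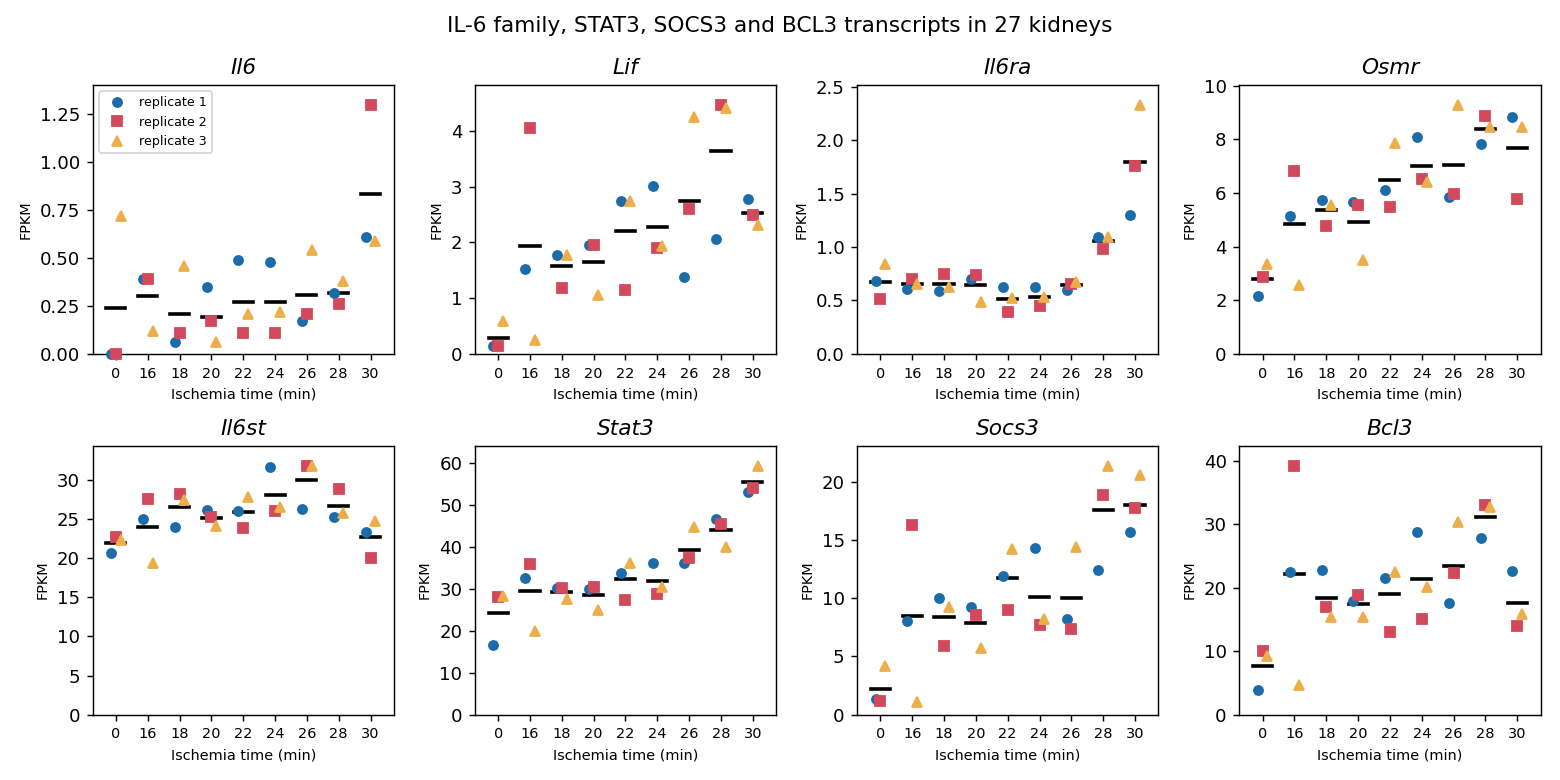
FPKM of each of the 8 genes (vertical axes, linear) at each ischemia time in min (horizontal axes), with 1 symbol per kidney and a bar for the mean of 3 kidneys. Socs3 lies between 15.7 and 20.6 FPKM at 30 min against 1.18 to 4.16 at 0 min, Il6ra rises above its sham range only at 28 and 30 min, and replicate 3 at 16 min lies far below its group mates for Socs3, Lif and Bcl3.

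Each ischemia time was compared with 0 min to ask which genes of the pathway responded and from which time on. These 8 comparisons share the same sham kidneys. A gene is said to have risen or fallen when its Benjamini-Hochberg adjusted p-value in limma was under 0.05, and it is called a DEG (differentially expressed gene) when its log2 fold change on the log2(FPKM + 1) scale was also past 1 in size. At 30 min, 6 of the 8 genes rose, where 26.9% of all 18188 genes tested did, and 4 of them were DEGs, where 5.14% of all genes were DEGs with higher levels. These were Socs3, Lif, Stat3 and Osmr, and without sham replicate 1 the count of DEGs was 2, with Osmr (0.94) and Stat3 (0.92) under 1. At 28 min, 5 of 8 rose against 24.5% of all genes, and the 4 DEGs, against 4.27%, were Socs3, Bcl3, Lif and Osmr. The median log2 fold change of the 8 genes was 1.06 at 30 min and 0.97 at 28 min, and that of all genes tested was 0.000772 and 0.

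At shorter ischemia fewer of the genes passed the test. No gene of the 8 was a DEG at 16 min, where 1.28% of all genes were DEGs with higher levels and 9.43% rose. Socs3 was the only DEG at 18 min (background 1.97%) and at 20 min (1.55%). Socs3 and Lif were DEGs at 22 min (2.09%). Socs3, Lif and Bcl3 were DEGs at 24 min (1.97%) and at 26 min (2.16%). At 18 min 2 of the 8 rose against 12.6% of all genes, and at 20 min 1 against 10.7%. At 22 min 3 rose against 13.4% of all genes, then 4 at 24 min against 13.6% and 6 at 26 min against 14.9%. A single gene fell at any time, Il6ra at 22 min, by 0.27 on the log2 scale (adjusted p = 0.0466 in limma), where 15.4% of all genes fell, and this call was lost without sham replicate 1 (adjusted p = 0.0859), sham replicate 3 (adjusted p = 0.177), or replicate 2 or 3 at 22 min (adjusted p = 0.182 and 0.104), and without quantile normalization (-0.15, adjusted p = 0.297). Without replicate 3 at 16 min, Socs3 (log2 fold change 1.92), Bcl3 (1.80) and Lif (1.41) were DEGs at 16 min, so the count of 0 there rests on that kidney. The count at 18 and 20 min was 0 without sham replicate 1 or sham replicate 2, and that at 22 and 24 min was 1. It was also 1 at 22 min without replicate 1 or 3 of that group, and 0 at 24 min without replicate 1 of that group. At 26 min it was 1 without sham replicate 1 or without replicate 3 of that group. Of the calls from 18 to 26 min, those of Socs3 at 22 min, Osmr at 22, 24 and 26 min and Lif at 26 min passed the test whichever single kidney was left out. At 28 and 30 min every call did so but that of Il6.

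**Figure D2:**
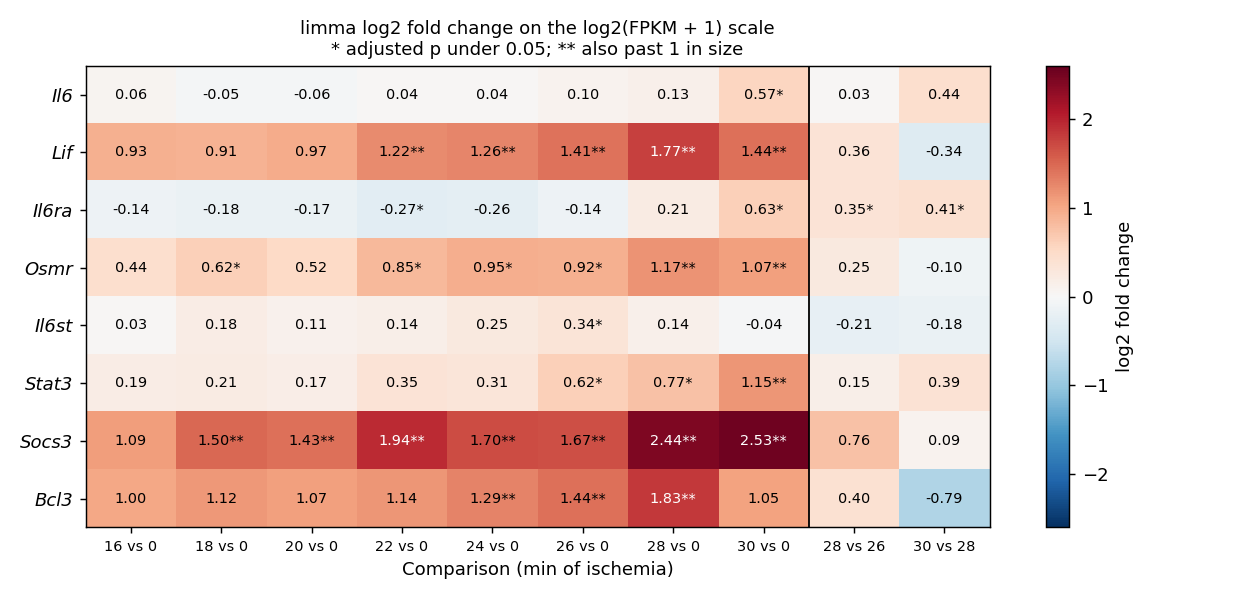
limma log2 fold change on the log2(FPKM + 1) scale for the 8 genes (rows) in the 8 comparisons with 0 min and in 28 against 26 and 30 against 28 min (columns), red for higher and blue for lower at the longer time. A single asterisk marks an adjusted p-value under 0.05 and a double asterisk a change also past 1, and Socs3 carries the double asterisk in 7 of the 8 comparisons with 0 min.

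Among the ligands, Lif rose from 22 min on and Il6 at 30 min only. LIF acts on LIFR and gp130. Lif was 0.14, 0.14 and 0.59 FPKM in the sham kidneys and 2.78, 2.50 and 2.32 FPKM at 30 min, with no overlap, as held for 33.3% of all genes. The highest kidneys were at 28 min, with 2.06, 4.47 and 4.42 FPKM. At 16 min the kidneys ran from 0.25 to 4.06 FPKM and overlapped the sham range. Lif was a DEG from 22 min on, with log2 fold changes of 1.22 ± 0.37 (SE) at 22 min (adjusted p = 0.0168), 1.77 ± 0.37 at 28 min (adjusted p = 0.000473) and 1.44 ± 0.37 at 30 min (adjusted p = 0.00257). The call at 22 min was lost without sham replicate 1 (adjusted p = 0.0574) or sham replicate 2 (adjusted p = 0.0607), and without replicate 1 or 3 at 22 min (adjusted p = 0.0689 and 0.0721), and that at 24 min without sham replicate 2 (adjusted p = 0.053) or replicate 1 at 24 min (adjusted p = 0.0609). In mean FPKM Lif was 12.6 times the sham level at 28 min and 8.74 times at 30 min. These ratios are larger than the fold changes of the fit, because 1 FPKM is added before the log.

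Il6 itself, the namesake cytokine, was near the lower end of the table throughout. It was listed at 0, 0 and 0.72 FPKM in the sham kidneys. From 16 to 26 min its 18 kidneys ran from 0.06 to 0.54 FPKM with a median of 0.21, which lies inside the sham range. The values were 0.32, 0.26 and 0.38 FPKM at 28 min and 0.61, 1.30 and 0.59 FPKM at 30 min. The kidneys at 30 min were all above those at 28 min, as held for 11.9% of all genes, but 2 of the 3 were below the highest sham kidney. Il6 rose at 30 min by a log2 fold change of 0.57 ± 0.21 (adjusted p = 0.0275), and at no shorter time. In mean FPKM it was 3.47 times the sham level, which rests on sham replicate 3 alone. The call was lost without sham replicate 1 (0.42, adjusted p = 0.138) or sham replicate 2 (0.42, adjusted p = 0.140). It was also lost without replicate 2 at 30 min (0.36, adjusted p = 0.179). A limma fit of the 0 and 30 min kidneys alone lost it too (0.53, adjusted p = 0.173). Without sham replicate 3 the log2 fold change was 0.86 (adjusted p = 0.000714).

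Among the receptor genes, Osmr rose at 18 min and from 22 min on, Il6ra rose only at the longest times, and Il6st moved little. Osmr encodes the chain that binds oncostatin M together with gp130. Its sham kidneys were at 2.16, 2.86 and 3.34 FPKM, and those at 28 min at 7.81, 8.88 and 8.44 FPKM. From 18 min on, every ischemic group lay above the sham kidneys. The share of all genes lying wholly above them was 29% after 18 min, 26.4% after 20 min and 29.9% after 22 min. After 24 min this share was 29.4%, after 26 min 29.1%, after 28 min 35.5% and after 30 min 33.3%. The log2 fold change was 0.62 ± 0.22 at 18 min (adjusted p = 0.0425, but 0.162 without sham replicate 1, 0.0779 without sham replicate 2, and 0.0588 to 0.119 with any single kidney at 18 min left out), did not pass the test at 20 min (0.52, adjusted p = 0.0977), and was between 0.85 and 1.17 at 22 to 30 min, with adjusted p-values of at most 0.00704.

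Il6ra encodes the chain that binds IL-6 itself. Its kidneys were at 0.68, 0.51 and 0.84 FPKM at 0 min, and the 18 kidneys from 16 to 26 min lay between 0.39 and 0.75 FPKM. They were at 1.09, 0.98 and 1.09 FPKM at 28 min and at 1.30, 1.76 and 2.33 FPKM at 30 min. The 3 groups at 0, 28 and 30 min did not overlap. Of all genes 35.5% lay wholly above the sham kidneys at 28 min, 33.3% did at 30 min, and 11.9% lay wholly higher at 30 than at 28 min. Il6ra was also the only one of the 8 genes to change between neighbouring ischemia times. It rose from 26 to 28 min by 0.35 ± 0.10 (adjusted p = 0.0181, where 10.8% of all genes rose) and from 28 to 30 min by 0.41 ± 0.10 (adjusted p = 0.0105, where 6.47% of all genes rose). The step to 28 min was lost without replicate 1 or 2 at 26 min or replicate 1 or 3 at 28 min, with adjusted p-values from 0.051 to 0.0656, and the step to 30 min without replicate 2 at 28 min (0.0525) or replicate 3 at 30 min (0.0863). Against 0 min the log2 fold change was 0.63 ± 0.10 at 30 min (adjusted p = 2.36e-05) and 0.21 ± 0.10 at 28 min, where it did not pass the test (adjusted p = 0.0876).

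Il6st, the shared gp130 subunit, was at 20.7, 22.8 and 22.4 FPKM in the sham kidneys. It was at 26.3, 31.8 and 31.8 FPKM at 26 min, its highest group, and at 23.4, 20.0 and 24.7 FPKM at 30 min, inside and around the sham range. It rose at 26 min alone (0.34 ± 0.11, adjusted p = 0.0179), and not without sham replicate 1 (0.31, adjusted p = 0.0668) or without replicate 2 or 3 at 26 min (adjusted p = 0.0754 and 0.0703). At 30 min the difference from sham was -0.04 ± 0.11 (adjusted p = 0.791). Its 3 kidneys at 30 min were all below those at 28 min, as held for 16.4% of all genes, and that difference did not pass the test (-0.18 ± 0.11, adjusted p = 0.309).

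Stat3, the transcription factor of the pathway, rose at 26 min and at the 2 longer times. The sham kidneys were at 16.7, 28.0 and 28.3 FPKM. At 16 min the kidneys ran from 19.8 to 35.8 FPKM, at 26 min from 36.1 to 44.7 FPKM, at 28 min from 39.9 to 46.6 FPKM and at 30 min from 53.0 to 59.3 FPKM. The groups from 24 min on lay wholly above the sham kidneys, as did 29.1% to 35.5% of all genes, and the kidneys at 30 min wholly above those at 28 min, as did 11.9%. The log2 fold change was 0.62 ± 0.18 at 26 min (adjusted p = 0.0133), 0.77 ± 0.18 at 28 min (adjusted p = 0.00142) and 1.15 ± 0.18 at 30 min (adjusted p = 1.81e-05). The step from 28 to 30 min was 0.39 ± 0.18 and did not pass the test (adjusted p = 0.173). Without sham replicate 1 the call at 26 min was lost (0.38, adjusted p = 0.105), as it was without replicate 3 at 26 min (0.52, adjusted p = 0.0657). Without sham replicate 1 the change at 30 min was 0.92 (adjusted p = 0.000146), still past the test but no longer past 1.

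Socs3 had the highest log2 fold change of the 8 genes on the log2(FPKM + 1) scale at each of the 8 times. In mean FPKM, however, the ratio to sham was higher for Lif than for Socs3 at all 8 times. SOCS3 ends signalling through gp130 and is a textbook STAT3 target. The sham kidneys were at 1.38, 1.18 and 4.16 FPKM. At 16 min they were at 8.04, 16.2 and 1.12 FPKM, so that replicate 3 was below every sham kidney while its group mates were above all of them. From 18 to 26 min the kidneys ran from 5.68 to 14.4 FPKM, all above the sham range, as held for 26.4% to 29.9% of all genes by group. At 28 min they were at 12.4, 18.9 and 21.4 FPKM, and at 30 min at 15.7, 17.8 and 20.6 FPKM. The log2 fold change was 1.09 ± 0.50 at 16 min (adjusted p = 0.135), 1.50 ± 0.50 at 18 min (adjusted p = 0.0289), 2.44 ± 0.50 at 28 min (adjusted p = 0.000385) and 2.53 ± 0.50 at 30 min (adjusted p = 0.000216). In mean FPKM this was 7.84 times the sham level at 28 min and 8.04 times at 30 min. The calls at 18, 20, 24 and 26 min were each lost without sham replicate 1 or sham replicate 2, with adjusted p-values from 0.0556 to 0.153, and also without replicate 1 or 3 at 18 min, replicate 1 or 2 at 20 min, replicate 1 at 24 min or replicate 3 at 26 min. The step from 26 to 28 min, 0.76 ± 0.50, did not pass the test (adjusted p = 0.325).

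Bcl3 was highest at 28 min, and its kidneys at 30 min were back among those of the shorter times. BCL3 is an atypical IkB protein that binds NF-kB dimers in the nucleus. The sham kidneys were at 3.91, 9.96 and 9.28 FPKM. They were at 22.5, 39.2 and 4.73 FPKM at 16 min, at 27.8, 33.1 and 32.7 FPKM at 28 min, and at 22.6, 14.0 and 15.9 FPKM at 30 min. All groups but that at 16 min were wholly above the sham kidneys, as were 26.4% to 35.5% of all genes. The log2 fold change was 1.83 ± 0.46 at 28 min (adjusted p = 0.0026) and 1.05 ± 0.46 at 30 min (adjusted p = 0.0653). The calls at 24 and 26 min were lost without sham replicate 1 (adjusted p = 0.198 and 0.126), that at 24 min also without sham replicate 3 or replicate 1 or 3 at 24 min, and that at 26 min also without replicate 2 or 3 at 26 min. The 3 kidneys at 30 min were all below those at 28 min, as held for 16.4% of all genes, but the difference of -0.79 ± 0.46 did not pass the test (adjusted p = 0.297). When replicate 3 at 16 min was left out of the fit, Bcl3 passed the test at 30 min with a log2 fold change of 1.05 (adjusted p = 0.00619).

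From 16 to 26 min the 8 genes showed no change with time that passed the test. None of the 5 comparisons of neighbouring times in this range called any of the 8, nor did 26 against 16 min, and across all 18188 genes limma called 0 in each of these 6 comparisons. At an unadjusted p under 0.05, between 447 and 1717 of all genes passed in these comparisons. The 1717 were at 26 against 16 min and held Il6st, Stat3 and Osmr (unadjusted p = 0.00725, 0.0275 and 0.0418 in limma). The Stat3 kidneys at 26 min were all above those at 16 min, as held for 4.83% of all genes. The largest difference between 26 and 16 min was in Socs3 (0.59 ± 0.50, adjusted p = 0.770). The linear trend over these times was between -0.01 and 0.06 on the log2 scale per min for the 8 genes, with adjusted p-values of at least 0.462, and 0.011% of all genes passed that test. At the 16 min time the order of the kidneys was the same for Socs3, Lif, Bcl3, Osmr, Stat3 and Il6st, with replicate 2 highest and replicate 3 lowest.

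The genes whose course over the 8 ischemia times was most like that of Socs3 or Lif were found by the mean absolute difference of their log2 fold changes, among 12345 genes with a mean of at least 1 FPKM. For Socs3 they were Junb (0.10), an AP-1 subunit gene, Mthfd1l (0.17), of mitochondrial one-carbon metabolism, and Phgdh (0.17), of serine synthesis. For Lif they were Bhlhe40 (0.12), a transcriptional repressor gene, Bcl3 (0.12) and Ctps (0.13), of CTP synthesis. Lif ranked 166 from Socs3 (0.55). All of these distances are over the same sham kidneys.

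The rest of the pathway was counted in 7 lists of 72 genes, of which 71 were tested. At 30 min 38 rose (53.5%) and 10 fell (14.1%), where 26.9% of all genes rose and 25.4% fell. DEGs numbered 16 with higher and 3 with lower levels, where 5.14% and 5.59% of all genes were such DEGs. At 28 min 32 rose (45.1%) and 14 fell (19.7%), where 24.5% of all genes rose and 23.6% fell. After 26 min 20 rose and 7 fell, where 14.9% of all genes rose and 15.2% fell. At 16 min 7 of the 71 rose and 8 fell, near the 9.43% and 9.61% of all genes. Without replicate 3 at 16 min 17 rose and 9 fell, but the share of all genes in that fit was not counted. Of the step from 26 to 28 min, 7 rose, where 10.8% of all genes did, and 3 fell, where 8.52% of all genes did.

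**Figure D3:**
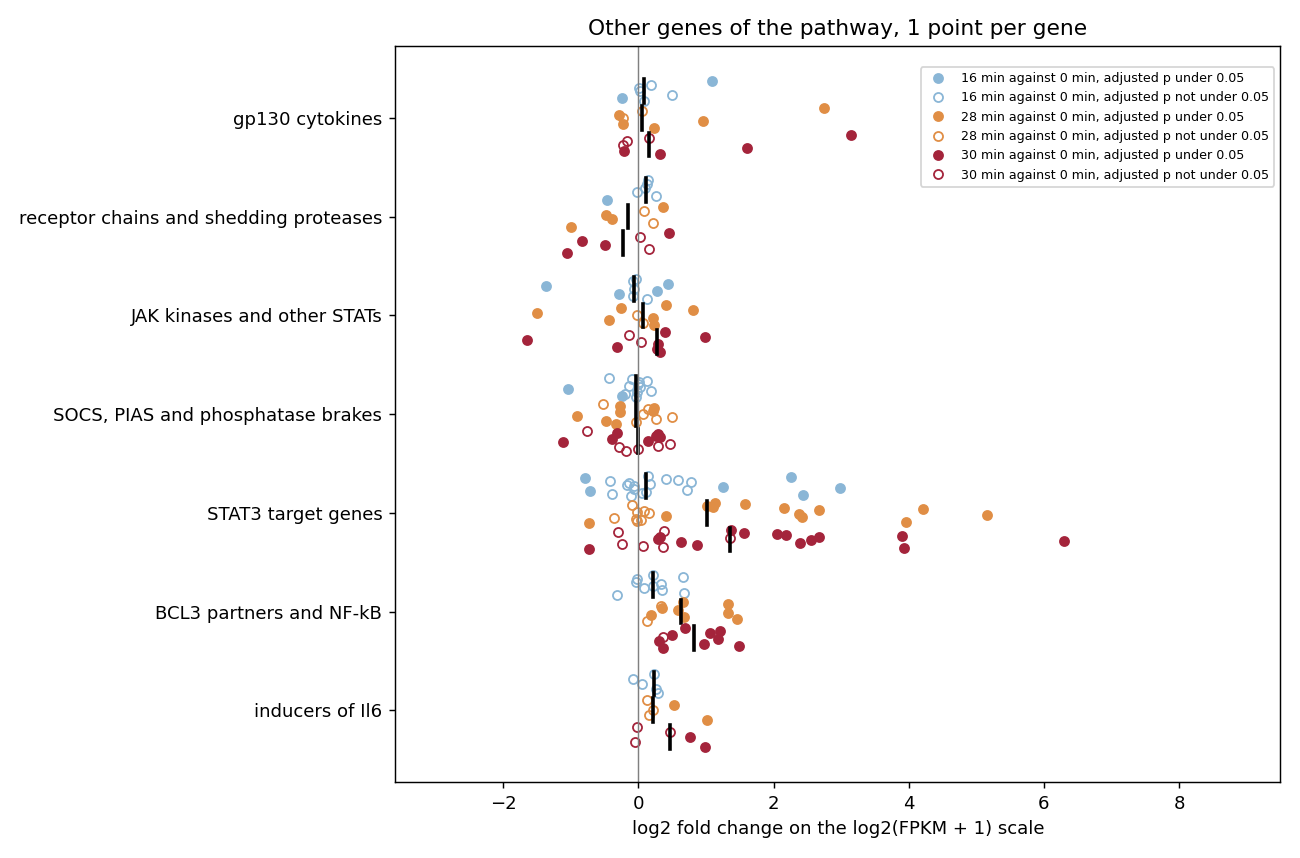
log2 fold change on the log2(FPKM + 1) scale against 0 min (horizontal axis) of the 71 other pathway genes tested, 1 point per gene, at 16, 28 and 30 min, by list (vertical axis). Filled points have an adjusted p-value under 0.05 and black ticks mark list medians, and the median of the STAT3 target genes moves from near 0 at 16 min to 1.01 at 28 min and 1.36 at 30 min.

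Of 7 other cytokine genes that signal through gp130 or related complexes, 3 rose (42.9%) at 30 min and 1 fell (14.3%), against 26.9% and 25.4% of all genes. Clcf1, a cytokine gene of this family, had a larger log2 fold change at 30 min than any of the 8 genes above and was a DEG at all 8 times. Without sham replicate 1 it did not pass the test at 16, 18, 20 or 22 min (adjusted p = 0.114, 0.0572, 0.0858 and 0.0818), nor without sham replicate 2 at 16 min (adjusted p = 0.0647). Clcf1 was at 1.60, 2.55 and 3.0 FPKM at 0 min, at 26.3, 21.1 and 25.5 FPKM at 28 min and at 33.4, 33.2 and 26.6 FPKM at 30 min (log2 fold change 3.15 ± 0.34, adjusted p = 1.55e-07). It was 1 of 2 pathway genes that were DEGs at 28 against 26 min (1.28 ± 0.34, adjusted p = 0.0111), where 0.44% of all genes were DEGs with higher levels. Il11, a cytokine that uses its own receptor chain and gp130, was at 0.24, 0.37 and 1.65 FPKM at 0 min and 6.10, 6.07 and 2.17 FPKM at 30 min (1.61 ± 0.38, adjusted p = 0.00137). Osm, the ligand of OSMR, stayed under 0.5 FPKM in every kidney at 0 and 30 min but rose (0.32 ± 0.06, adjusted p = 9.98e-05). Il27 was the gene that fell, by 0.22 at 30 min. It was near the lower end of the table, at 0.06, 0.32 and 0.10 FPKM at 0 min and 0, 0 and 0.06 FPKM at 30 min.

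Of 6 partner receptor chains and receptor-shedding protease genes, 1 rose (16.7%) and 3 fell at 30 min, against 26.9% and 25.4% of all genes, and the 3 that fell were receptor chains. Lifr, the partner chain for LIF and several relatives, was at 18.5, 18.5 and 17.7 FPKM at 0 min, at 8.47, 9.92 and 10.2 FPKM at 28 min and at 8.84, 7.58 and 10.2 FPKM at 30 min. It fell at all 8 times and was a DEG at 30 min, where it fell by 1.06 on the log2 scale (adjusted p = 5.58e-09). It also fell from 26 to 28 min, by 0.41 (adjusted p = 0.00307). Cntfr, the receptor chain for CNTF, fell at 30 min by 0.84 (adjusted p = 0.000876), and Il11ra1, the IL-11 chain, by 0.49 (adjusted p = 8.23e-05). Adam10, a membrane protease gene, rose (0.45, adjusted p = 9.34e-05). Adam17, which cleaves IL6RA from the membrane, was at 0.03 (adjusted p = 0.790). At 30 min Lif, Clcf1 and Il11 were thus higher beside lower Lifr, Cntfr and Il11ra1, while the receptor genes Osmr and Il6ra were higher.

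Of 9 JAK and other STAT genes, 5 rose (55.6%) and 2 fell (22.2%) at 30 min, against 26.9% and 25.4% of all genes. Jak3, a kinase gene of leukocytes, had the highest rise (0.99 ± 0.14, adjusted p = 6.28e-06), and Stat5b fell by 0.32. Stat2 was a DEG with lower levels at all 8 times, but this rested on the sham kidneys. It was at 5.60, 4.34 and 5.26 FPKM at 30 min and between 5.24 and 6.18 FPKM at 28 min, while sham replicate 1 was at 5.69 FPKM. Against sham replicate 1 only, its log2 fold change at 30 min was -0.27 (adjusted p = 0.125) in place of -1.65. It passed the test against that kidney at none of the 8 times, with log2 fold changes from -0.27 to 0.17. With this single control the lone sham kidney is assumed to vary like the other groups.

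Of 13 genes of other brakes (SOCS relatives, PIAS proteins and phosphatases), 4 rose (30.8%) and 3 fell (23.1%) at 30 min, near the 26.9% and 25.4% of all genes, and none was a DEG with higher levels. Socs1, which restrains interferon signalling, was at 0.64, 4.75 and 3.46 FPKM in the sham kidneys and at 0.52, 0.78 and 0.90 FPKM at 30 min. It fell by 1.11 (adjusted p = 0.00266), and against sham replicate 1 only the difference was -0.01 (adjusted p = 0.990). In the same comparison Socs3 was at 2.88 (adjusted p = 0.00274). Socs2, a brake on growth hormone signalling, was at 0.47 (adjusted p = 0.200).

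Of 21 tested STAT3 target genes, 14 rose (66.7%) and 1 fell at 30 min, where 26.9% of all genes rose, and 10 were DEGs, where 5.14% of all genes were DEGs with higher levels. Lcn2, which encodes the tubular injury marker NGAL, was at 11.5, 9.39 and 63.6 FPKM at 0 min, at 759, 931 and 827 FPKM at 28 min and at 1213, 2139 and 3921 FPKM at 30 min (6.30 ± 0.78, adjusted p = 1.03e-06). Timp1, a metalloprotease inhibitor gene, rose by 3.93 ± 0.57 (adjusted p = 7.2e-06). The fibrinogen chain genes Fgb and Fgg rose by 3.90 and 2.67 at 30 min, with replicate 3 below its group mates in both (31.5 against 122 and 133 FPKM for Fgb). Myc, a growth regulator gene, was a DEG at 28 against 26 min (1.33 ± 0.33, adjusted p = 0.00708) and at 2.39 ± 0.33 at 30 min.

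The targets did not move as one. Birc5, a mitosis gene, was a DEG with higher levels at every time from 16 to 28 min and not at 30 min (0.38 ± 0.44, adjusted p = 0.508). Vegfa, an angiogenic factor gene, was the one that fell at 30 min, by 0.73. Ccnd1 and Pim1, both cell-growth genes, fell at 16 min by 0.79 and 0.72, and at 30 min were at -0.30 (adjusted p = 0.124) and -0.24 (adjusted p = 0.289). Many of these genes also respond to other factors, and STAT3 binding was not measured.

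Of 10 NF-kB genes, none passed the test at 16 min, 8 rose at 28 min and 9 at 30 min, where 9.43%, 24.5% and 26.9% of all genes rose. Relb, an NF-kB subunit gene, was at 2.16, 2.63 and 2.89 FPKM at 0 min and at 8.85, 10.6 and 10.2 FPKM at 30 min (1.48 ± 0.24, adjusted p = 3.11e-05). Nfkb2, which encodes the partner of RELB and of BCL3, rose by 1.21, and the IkB family genes Nfkbiz and Nfkbia by 1.18 and 1.06. The gene that did not pass at 30 min was Nfkbie (0.37, adjusted p = 0.0773). Of 5 inducers of Il6 and their receptors, the receptor genes Tnfrsf1a (0.98 ± 0.15) and Il1r1 (0.76 ± 0.12) rose at 30 min (40.0% of the list, against 26.9% of all genes). The cytokine genes did not pass the test there, with Il1b at 0.47 (adjusted p = 0.0742), Tnf at -0.05 (adjusted p = 0.805) and Il1a at -0.02 (adjusted p = 0.851).

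Markers of other cell types moved at the same ischemia times. The summed level of 8 neutrophil markers was between 4.37 and 13.1 FPKM in the kidneys at 0 to 26 min, between 16.2 and 19.7 FPKM at 28 min and between 24.0 and 32.0 FPKM at 30 min. At 28 min 3 of the 8 rose and 1 fell, where 24.5% of all genes rose and 23.6% fell. Ly6g was at 0.06 to 0.07 FPKM at 28 min against 0.23 to 0.64 FPKM at 0 min. At 30 min 6 of the 8 rose, where 26.9% of all genes did, and Ly6g and Cxcr2 did not pass the test. None of the 8 was at 0 at 30 min, and at 0 min Mmp8 was at 0 in 1 kidney. Il6ra rose from 26 to 28 min and from 28 to 30 min, but of these times only 30 min passed the test against 0 min. Il6ra transcripts are known in leukocytes as well as in liver. Of 5 T cell markers 4 fell at 28 min and 3 at 30 min, where 23.6% and 25.4% of all genes fell. None of 4 B cell markers passed the test at either time. The summed level of 7 proximal tubule markers was between 2892 and 3211 FPKM at 0 min, between 1292 and 1409 FPKM at 28 min and between 752 and 914 FPKM at 30 min. At 30 min 6 of the 7 fell, where 25.4% of all genes did. The 9 macrophage and monocyte markers summed to between 64.0 and 119 FPKM over the 27 kidneys. At 28 min 2 of them rose (22.2%) and 5 fell (55.6%), against 24.5% and 23.6% of all genes. At 30 min 2 rose (22.2%) and 2 fell (22.2%), near the 26.9% and 25.4% of all genes. The members differed, with Cd68 at 3.04 to 3.61 FPKM at 0 min and 25.7 to 30.9 FPKM at 30 min. Csf1r was at 13.7 to 18.3 FPKM at 0 min and 6.47 to 7.0 FPKM at 30 min. The 6 fibroblast markers summed to between 40.7 and 46.7 FPKM at 0 min and between 95.4 and 229.5 FPKM at 16 to 26 min. In that span Socs3, Lif, Osmr and Bcl3 each rose at some of the times. The sum was between 46.6 and 138.0 FPKM at 28 and 30 min, where Socs3, Lif and Osmr rose at both times. Of the 6 fibroblast markers 3 rose at 16 min and 4 at each later time, and 1 fell at 28 and at 30 min. At 16 to 26 min Pdgfra (2.95 to 6.11 FPKM) and Dcn (8.49 to 19.8 FPKM) lay around their sham ranges. Of all genes 9.43% rose at 16 min and 10.7% to 26.9% at the later times. Of 5 endothelial markers 3 rose at 30 min, where 26.9% of all genes did. Of 4 loop and distal tubule markers all fell at 28 and at 30 min, where 23.6% and 25.4% of all genes fell. Their sum in replicate 3 at 30 min was 2342 FPKM, above every sham kidney, while its group mates were at 596 and 603 FPKM. The part of such shifts in the changes of the 8 genes was not tested.

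**Figure D4:**
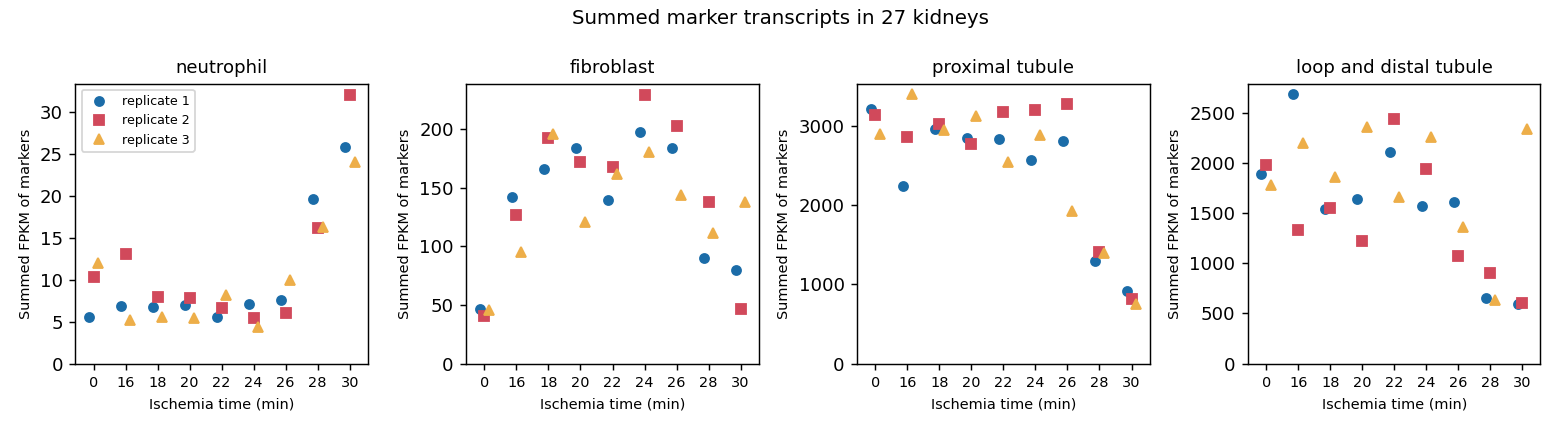
Summed FPKM of the markers of 4 cell types (vertical axes, linear, from 0) by ischemia time in min (horizontal axes), 1 symbol per kidney. Fibroblast markers lie above the sham kidneys in every kidney at 16 to 26 min, and between 46.6 and 138.0 FPKM at 28 and 30 min. Neutrophil markers lie between 24.0 and 32.0 FPKM at 30 min against at most 13.1 FPKM at 0 to 26 min, and proximal tubule markers between 752 and 914 FPKM at 30 min against at least 2892 FPKM at 0 min.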

How the data were processed

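RNA-Seq libraries of 27 left kidneys were made and sequenced on DNBSEQ-G400 by the authors. The deposited table gives FPKM by gene symbol, which the authors computed and rounded to 2 decimals on a linear scale. Bowtie2, RSEM, DESeq2 and GRCm38.p6 are named in the submitters' processing notes. Counts were not used here. Sequencing depth is therefore unknown, and precision rests on the 3 mice per time, which the labels number without a batch.

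After adding a pseudocount of 1 FPKM, values were log2 transformed and quantile normalized over the 27 kidneys. The 18188 of 19392 genes above 0 FPKM in at least 3 kidneys were fitted in limma 3.58.1 (R 4.3.3) with 1 mean per ischemia time and Benjamini-Hochberg adjustment over all genes tested, after the steps were tested on simulated data. DEGs follow the study's limits, a log2 fold change past 1 in size and an adjusted p-value under 0.05. Fold changes on this scale understate those of low genes such as Il6.

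The 8 genes, the pathway lists and the marker lists were chosen with earlier results of these data known, and a few pathway genes are not reported here. Named from each pathway list were up to 4 DEGs at 28 or 30 min by size of change at 30 min, plus the few exceptions that a count leaves. A few more were named after their values were seen, such as Il11ra1, Adam10, Adam17, Stat5b, Socs2, Ccnd1, Pim1 and Il1r1. Alternatives tried were another pseudocount (0.1 FPKM), values without quantile normalization, rescaling to a constant sum, other filters, a trended prior, the compared groups alone, a replicate block, and leaving out kidneys. Figures were drawn with matplotlib 3.10.9 (Python 3.11.15).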

Additional observations from a re-analysis of the deposited data

How the results depend on the processing

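Of the results for single genes in each comparison, 2045 stayed on their side of the threshold under an alternative, 74 lost the call and 40 gained it. Of the 2045, 108 changed sign, and none of these passed the test in either fit. The count of DEGs among the 8 genes against 0 min was 0 at 16 min, and 1 with a pseudocount of 0.1 FPKM or after rescaling to a constant sum. At 18 min it was 1, and 2 with that pseudocount, with rescaling, or with only the groups compared. At 20 min it was 1, and 2 with that pseudocount, with rescaling or without quantile normalization, and 0 with no filter. At 22 min it was 2, and 4 with rescaling. Leaving out 1 kidney gave 0 to 3 DEGs at 16 min, 0 to 1 at 18 and at 20 min, 1 to 2 at 22 min, 0 to 3 at 24 min, 1 to 4 at 26 min, 4 at 28 min and 2 to 4 at 30 min. The kidneys whose absence moved a count by more than 1.5 times were sham replicates 1 and 2 at 18, 20, 22 and 24 min, sham replicate 1 at 26 and 30 min, replicates 1 and 3 at 18 and at 22 min, replicates 1 and 2 at 20 min, replicate 1 at 24 min, replicate 3 at 16 min and replicate 3 at 26 min. Without sham replicate 2 the count at 26 min was 2. A further 2 alternatives were added after the data were seen. With replicate 3 at 16 min left out of the shared fit, the count was 2 at 18 and at 20 min. With sham replicates 2 and 3 left out, it was 0 at 18 and at 20 min and 1 at 24 min. At 28 min the count was 4 under every alternative run but the last, which gave 5.

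With the replicate number as a block, the count at 20 min was 0 and all other counts of DEGs were within 1.5 times. Kidneys with the same number in different groups showed no shared deviation in the median (correlation -0.00875 over 108 pairs, and -0.00999 over 216 pairs with other numbers). Single pairs with the same number ran from -0.416 to 0.48. No pairing by number was thus seen, but a median near 0 cannot exclude a batch shared by some of the mice. The depth behind each value is unknown, which limits Il6 most, whose smallest value above 0 was 0.06 FPKM.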
